A study of Rattus norvegicus with 52 samples.

Results

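Kidneys of 4 congenic ET3x1 rats were compared with kidneys of 5 Dahl SS/Jr (S) rats, all kept on a low salt diet. The rats were found by strain and diet in the array titles, and the 2 chips of each rat were matched by its animal number. They are 9 of the 26 rats and 18 of the 52 arrays of the series, and every non-control probe set was a candidate.

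The ET3x1 rats were a congenic strain in which a chromosome segment of the Dahl salt-resistant R strain replaces the same segment of the S genome. The S rats were the inbred recipient strain, whose blood pressure climbs on a salty diet. Both groups were male, were weaned at 30 days onto chow with 0.4% NaCl and stayed on it until death at 40 to 42 days of age. Strains were raised and studied side by side, and total RNA came from the left kidney of each animal. Rats moved to 4% NaCl for 24 hours (4 ET3x1 and 5 S) and 4 low salt rats of a second congenic strain, ET3x2, are used below only to test the strain difference. Each congenic strain is a single inbred line, so its differences from S may come from any R allele the line carries.

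The kidney filters blood in the glomerulus, where podocytes and a fenestrated endothelium form the barrier, and the tubule then takes back most of the salt and water. The proximal tubule does most of that work and is rich in mitochondria. The collecting duct makes the final adjustment through the epithelial sodium channel under aldosterone. In Dahl S rats a low salt diet holds back the hypertension that a high salt diet brings out, so a strain difference on low salt is a difference between kidneys before salt loading. The kidney also has a circadian clock, a loop in which CLOCK and BMAL1 drive their own repressors through E-box sequences.

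Array medians of the 9 rats lay between 7.47 and 7.52 on chip RAE230A (log2) and between 6.34 and 6.40 on RAE230B, and no 2 arrays held identical values. All 14 markers of kidney tubule segments passed the filter on dim probe sets described below, as did 1 of 9 adipocyte and skeletal muscle markers and 0 of 7 liver markers. Of 10 quality measures, compared by exact permutation tests (two-sided, smallest possible p 0.00794), none passed after Benjamini-Hochberg adjustment, and none could have alone, since the smallest p adjusts to 0.0794. The nearest were the RAE230A array median, 7.48 ± 0.0067 in ET3x1 and 7.51 ± 0.015 in S rats (SD, n = 4 and 5, exact p = 0.0317, adjusted 0.238), and the spread between spike-in controls bioD and bioC, 2.54 ± 0.24 and 2.83 ± 0.11 (exact p = 0.0476, adjusted 0.238). On RAE230A the 3' minus 5' difference of the Gapdh control probes averaged 0.88 ± 0.10 in ET3x1 and 0.83 ± 0.07 in S rats (exact p = 0.405). The first principal component of all 26 RAE230A arrays (32.5% of the variance) ran, among these 9 rats, from S rat 1 to ET3x1 rat 2. Rats are numbered within their group, and the numbers pair no animals.

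The strains differed in 26.8% of the tested probe sets, most by a modest amount. Differences are ET3x1 minus S on the log2 scale ± the standard error of a limma fit over all 6 groups, a probe set is called at a Benjamini-Hochberg adjusted p below 0.05, and every adjusted p below is limma's. All 31042 non-control probe sets were candidates, and those with a mean level below the median of their chip were left out. Of 15473 tested probe sets 4150 were called (26.8%), 2587 higher in ET3x1 (16.7%) and 1563 lower (10.1%). The median size of a called difference was 0.34. Only 267 of the called probe sets were more than 1.5-fold higher and 132 more than 1.5-fold lower. Past 2-fold there were 23 higher and 29 lower. Every ET3x1 rat lay above every S rat in 1887 probe sets (12.2%) and below in 1162 (7.51%).

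The balance of higher and lower calls depended on scaling and on the filter on dim probe sets. As deposited, 62.3% of the calls were higher in ET3x1. Without the filter 51.5% of 7187 calls were higher, and with array medians centred 66.3% of 4225. After quantile normalization 4425 probe sets were called, 2294 higher and 2131 lower, or 51.8% higher. The median of all differences was 0.02, and it was 0.07 in the brightest of 3 equal groups of probe sets, against 0.00130 there after quantile normalization. Of the 4150 calls 3755 were made again, in the same direction, on the quantile scale.

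A few rats weighed heavily. Without ET3x1 rat 2 the count of calls fell to 2448, 1615 higher and 833 lower, and without both that rat and S rat 1 it was 1534, of which 1512 were among the original calls. S rat 1 had the lowest S value in 1778 of the 2587 higher probe sets. S rat 4 held the highest S value in 26 of the 29 probe sets lower by over 2-fold, though in just 313 of all 1563 lower ones. The 23 probe sets over 2-fold higher became 10 without S rat 1, 12 without ET3x1 rat 2 and 35 without S rat 5. The 29 over 2-fold lower became 18 without S rat 4.

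The chips could be checked against each other, since 100 maintenance probe sets sit on both. Their strain differences had a Pearson correlation of 0.964 across probe sets, which are not independent replicates, and 90 had the same sign. This covers hybridisation alone, because the same RNA went onto both chips. Probe sets of one gene agreed less well. Among 213 genes with several called probe sets, 173 moved in a single direction and 40 had calls both ways. By 1 probe set a gene, the brightest, 2632 of 8825 genes were called (29.8%), 1889 higher (21.4%) and 743 lower (8.42%), and these shares are the background for the gene lists below. On the quantile scale they were 18.6% and 12.6%, and the quantile counts of the lists are to be set against those. Without ET3x1 rat 2, 1190 genes were higher and 377 lower, and without both that rat and S rat 1 the shares were 7.42% and 3.37%. Genes called higher were short, with a median span in the genome of 12.1 kb, against 49.4 kb for those called lower and 22.8 kb for all 8793 genes with a span.

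The largest rise belonged to Evi5, which encodes a GTPase-activating protein of endosomal Rab proteins. Its probe set read 9.48, 9.77, 9.46 and 8.92 in ET3x1 rats, against 7.53, 7.60, 7.87, 8.13 and 8.02 in S rats. The groups did not overlap, and the difference was 1.58 ± 0.22, 2.99-fold higher, adjusted p = 5.37e-05. A second Evi5 probe set went the other way, at -0.24 ± 0.08 (adjusted p = 0.0294).

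Scand1, a SCAN domain protein gene of chromosome 3, read 9.77, 10.30, 9.94 and 9.89 in ET3x1 rats, against 6.75, 8.52, 9.30, 8.79 and 9.48 in S rats (1.41 ± 0.35, 2.66-fold higher, adjusted p = 0.00479). S rat 1 stood far below the other S rats, and without 1 rat at a time the difference ranged from 0.95 to 1.64. Cd99, a surface glycoprotein used by leukocytes to cross vessel walls, read 9.71, 10.28, 10.27 and 10.00 in ET3x1 rats, against 7.89, 8.48, 9.06, 9.12 and 9.16 in S rats (1.32 ± 0.27, 2.51-fold higher, adjusted p = 0.00135). Dapk3, a kinase that can phosphorylate myosin light chain, read 9.29, 9.88, 9.75 and 9.65 in ET3x1 rats, against 7.35, 8.23, 8.93, 8.39 and 9.02 in S rats (1.26 ± 0.26, 2.39-fold higher, adjusted p = 0.00125). In both genes S rat 1 was the lowest of the 9, and no ET3x1 rat came down to the highest S rat.

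Tns1, whose product tensin ties integrins to actin, read 9.88, 10.01, 9.50 and 9.61 in ET3x1 rats, against 8.06, 8.37, 8.97, 8.79 and 8.80 in S rats (1.15 ± 0.14, 2.22-fold higher, adjusted p = 2.13e-05), and its 3 other probe sets were not called. Espn, an actin-bundling protein gene, read 9.55, 10.55, 10.03 and 9.84 in ET3x1 rats, against 8.43, 8.71, 9.26, 8.99 and 9.07 in S rats (1.10 ± 0.16, 2.15-fold higher, adjusted p = 8.81e-05). ET3x1 rat 2 was the highest in both genes. Mmp14, a membrane-bound protease that cuts matrix and activates another metalloproteinase, read 9.79, 9.70, 9.72 and 9.68 in ET3x1 rats, against 8.03, 8.44, 9.19, 8.49 and 8.85 in S rats (1.12 ± 0.16, 2.17-fold higher, adjusted p = 9.5e-05). The 4 ET3x1 rats lay within a narrow band, while the S rats were spread widely. Ap2s1, the small subunit of the AP-2 clathrin adaptor, was 2.34-fold higher (1.23 ± 0.23, adjusted p = 0.000708).

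Metrn, a secreted factor of glia and other cells, had the tightest ET3x1 values of the 12, 9.03, 8.97, 8.98 and 9.01 in ET3x1 rats, against 7.83, 8.15, 7.86, 7.76 and 7.71 in S rats (1.13 ± 0.17, 2.19-fold higher, adjusted p = 8.81e-05). Cmip, an adaptor first found downstream of the T-cell receptor, read 8.91, 9.49, 8.82 and 8.89 in ET3x1 rats, against 7.55, 7.85, 8.27, 7.98 and 7.89 in S rats (1.12 ± 0.14, 2.17-fold higher, adjusted p = 3.36e-05). ET3x1 rat 2 stood above its group, and the groups were still apart without it. Mgll, the lipase that breaks down monoglycerides and the endocannabinoid 2-arachidonoylglycerol, was 2.11-fold higher (1.07 ± 0.22, adjusted p = 0.00133). Sf3b1, a core splicing factor of the U2 particle, rose on one probe set (1.18 ± 0.20, 2.26-fold higher, adjusted p = 0.000276) and fell on its brighter one (-0.27 ± 0.09, adjusted p = 0.0339). Amn, the membrane partner of cubilin in proximal tubule endocytosis, was also over 2-fold higher (1.03 ± 0.28, 2.04-fold higher, adjusted p = 0.0088), as were Timm13 of the mitochondrial import system (1.00 ± 0.19, 2.01-fold higher, adjusted p = 0.000749) and Gcat of threonine breakdown (1.00 ± 0.18, 2.00-fold higher, adjusted p = 0.000552).

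**Figure D1:**
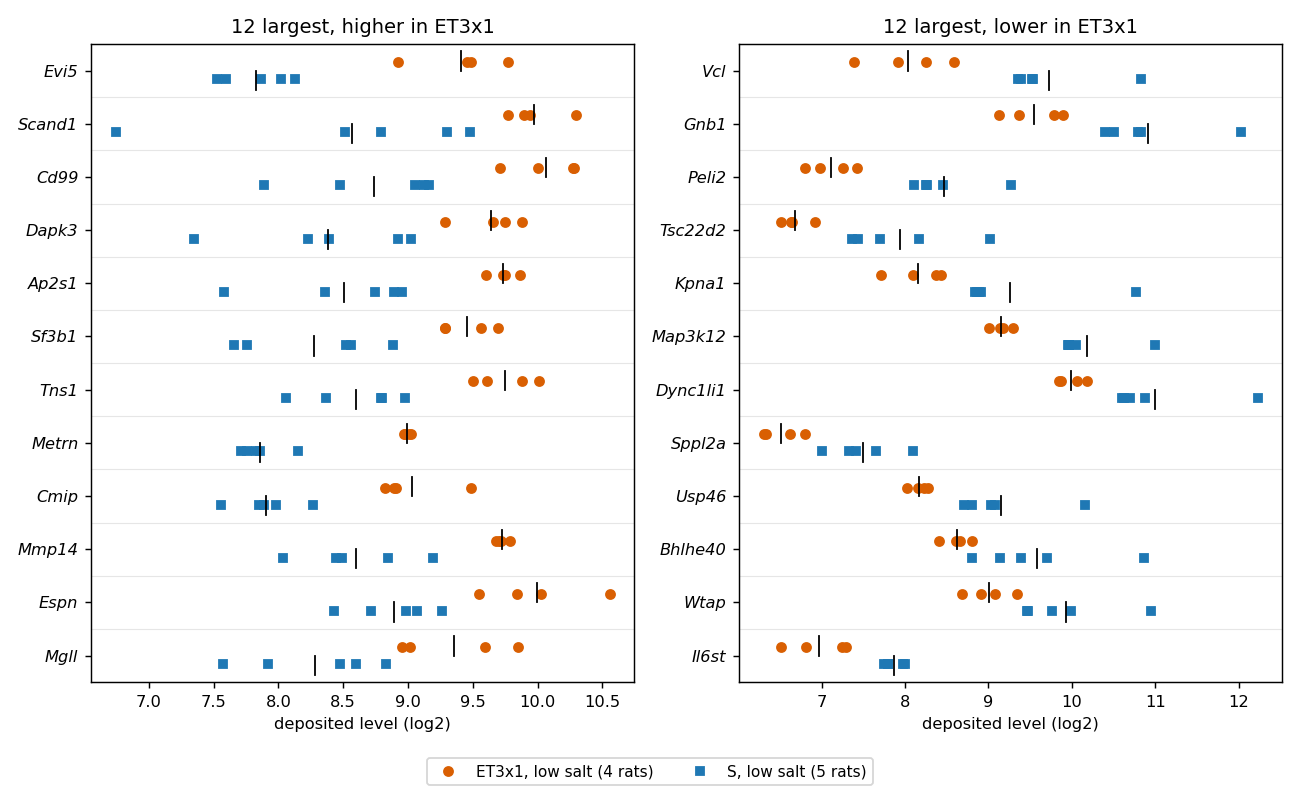
Deposited level (log2, horizontal axis) of the 12 genes with the largest called difference in each direction, 1 point a rat, ET3x1 above S in each row and a black line at each group's mean. The groups do not overlap in any of the 24 rows. S rat 1 is the lowest S rat in 10 of the 12 rows on the left, S rat 4 the highest in 11 of the 12 on the right. Levels of different genes are not comparable.

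Vinculin (Vcl), which couples cadherin and integrin contacts to actin, fell the furthest among named genes. The probe set read 8.58, 7.38, 7.91 and 8.25 in ET3x1 rats, against 9.39, 9.35, 9.52, 10.83 and 9.54 in S rats. S rat 4 stood far above the other S rats, which were close together, and no ET3x1 rat reached any of them. The difference was -1.69 ± 0.24, 3.24-fold lower, adjusted p = 6.95e-05, and it ran from -1.88 to -1.42 as each rat was left out. A second Vcl probe set was also lower (-0.39 ± 0.09, adjusted p = 0.00223) and 1 more was not called (0.03 ± 0.06).

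Gnb1, the beta subunit of heterotrimeric G proteins, read 9.89, 9.12, 9.36 and 9.79 in ET3x1 rats, against 10.39, 10.50, 10.80, 12.02 and 10.82 in S rats (-1.37 ± 0.23, 2.58-fold lower, adjusted p = 0.000279). A different Gnb1 probe set was called the other way, 0.95 ± 0.20 (adjusted p = 0.00159), so the gene has no single direction here. Peli2, a ubiquitin ligase of Toll-like and interleukin-1 receptor signalling, read 7.43, 6.80, 7.25 and 6.97 in ET3x1 rats, against 8.26, 8.11, 8.25, 9.27 and 8.46 in S rats (-1.36 ± 0.19, 2.56-fold lower, adjusted p = 7.17e-05). All 4 ET3x1 rats were below all 5 S rats in both genes. Tsc22d2, a TSC22 domain family gene, was 2.39-fold lower (-1.26 ± 0.25, adjusted p = 0.000962).

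S rat 4 was also the highest animal in the next 4 genes. Kpna1, an importin that carries proteins into the nucleus, read 8.37, 7.71, 8.10 and 8.43 in ET3x1 rats, against 8.91, 8.86, 8.84, 10.77 and 8.89 in S rats (-1.10 ± 0.26, 2.15-fold lower, adjusted p = 0.0039). Without 1 rat at a time its difference went from -1.21 to -0.72, the smallest size being the one without S rat 4. Map3k12, a stress kinase known from injured neurons, read 9.29, 9.01, 9.13 and 9.18 in ET3x1 rats, against 9.96, 10.05, 9.97, 10.99 and 9.95 in S rats (-1.03 ± 0.17, 2.05-fold lower, adjusted p = 0.000295). Dync1li1 of the dynein motor was 2.02-fold lower (-1.01 ± 0.21, adjusted p = 0.00135). Usp46, a deubiquitinase, was 1.97-fold lower (-0.98 ± 0.17, adjusted p = 0.000348).

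Sppl2a, an intramembrane protease that clears the remnant of the class II invariant chain in immune cells, read 6.80, 6.33, 6.31 and 6.62 in ET3x1 rats, against 7.65, 7.33, 7.0, 8.10 and 7.41 in S rats (-0.99 ± 0.16, 1.98-fold lower, adjusted p = 0.000183). Wtap, a regulatory subunit of the RNA methylation complex, was 1.90-fold lower (-0.92 ± 0.20, adjusted p = 0.00213). Il6st, the gp130 receptor chain shared by interleukin-6 family cytokines, had 3 probe sets lower and 1 higher, the last at 0.45 ± 0.14 (adjusted p = 0.021). Its most significant probe set read 7.29, 6.51, 6.81 and 7.24 in ET3x1 rats, against 7.74, 7.80, 7.98, 7.80 and 8.00 in S rats (-0.90 ± 0.12, 1.87-fold lower, adjusted p = 5.01e-05). Of the 24 genes 14 had other tested probe sets, with another call in the same direction in 4 and a call in the opposite direction in 4, Il6st being in both counts. Of the 23 higher and 29 lower probe sets past 2-fold, 8 and 21 had no single gene symbol. The largest of those, 1385889_at, was 5.09-fold lower (-2.35 ± 0.40, adjusted p = 0.000348).

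Several clock genes were lower in ET3x1 kidneys. Of 14 tested genes of the list 5 fell and 0 rose, with a median difference of -0.13 over the list, against 8.42% lower and a median of 0.05 over all genes. The count of 5 was the same after quantile normalization and without any 1 rat. Bhlhe40, a repressor of CLOCK and BMAL1 that answers to light and feeding, read 8.81, 8.40, 8.61 and 8.65 in ET3x1 rats, against 8.81, 9.14, 9.39, 10.86 and 9.70 in S rats (-0.96 ± 0.23, 1.94-fold lower, adjusted p = 0.00345). ET3x1 rat 1 and S rat 1 were almost level, S rat 4 stood above all, and without S rat 4 the difference was -0.64. Per3, a period gene of the repressing arm, read 7.47, 7.78, 7.89 and 7.75 in ET3x1 rats, against 8.19, 8.29, 8.13, 8.26 and 8.73 in S rats (-0.60 ± 0.10, 1.51-fold lower, adjusted p = 0.000276). S rat 5 was the highest and the groups were apart.

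Nr1d2, the nuclear repressor REV-ERB beta, read 8.75, 8.53, 9.17 and 8.96 in ET3x1 rats, against 9.15, 9.35, 9.47, 9.44 and 9.42 in S rats (-0.51 ± 0.12, adjusted p = 0.00431). ET3x1 rat 3 was just above S rat 1, so the groups overlapped. Clock itself read 7.88, 8.00, 7.93 and 8.02 in ET3x1 rats, against 8.49, 8.43, 8.09, 8.30 and 8.19 in S rats (-0.34 ± 0.08, adjusted p = 0.00273), with no overlap. Hlf, a transcription factor driven by the clock, was also lower (-0.29, adjusted p = 0.0118). Other clock genes that were tested did not pass, among them Per2 (0.02), Nr1d1 (0.16) and Dbp (0.21). Time of death within the day was not compared, as it is not in the sources used here, and its part in these differences was not tested.

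The promoters of the pair with the largest clock differences are shown because E-box and D-box sequences carry clock regulation. They run from 250 bases before to 50 after the start of the gene in RefSeq's table for GRCr8, written 5' to 3' on the gene's strand, with any E-box (CACGTG) or D-box (TTANGTAA), searched on both strands, in capitals. Bhlhe40 lies at chr4:143174200-143174499 on the plus strand and Per3 at chr5:166777751-166778050 on the minus strand.
Bhlhe40: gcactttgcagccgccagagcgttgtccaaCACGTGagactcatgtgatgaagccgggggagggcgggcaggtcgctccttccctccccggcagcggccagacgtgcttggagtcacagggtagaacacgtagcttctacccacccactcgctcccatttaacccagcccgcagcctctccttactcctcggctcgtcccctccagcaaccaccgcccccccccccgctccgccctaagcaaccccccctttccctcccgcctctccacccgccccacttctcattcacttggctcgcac
Per3: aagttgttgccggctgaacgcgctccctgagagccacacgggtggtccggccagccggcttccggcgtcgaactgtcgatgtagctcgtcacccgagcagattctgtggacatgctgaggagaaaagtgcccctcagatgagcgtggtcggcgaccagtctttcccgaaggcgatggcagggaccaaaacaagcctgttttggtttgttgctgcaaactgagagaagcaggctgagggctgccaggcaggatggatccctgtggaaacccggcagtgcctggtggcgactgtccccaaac
The Bhlhe40 window holds 1 E-box and the Per3 window neither motif. The letters of the E-box were in 6.65% of 27457 promoters of this length and in 3 of the 12 tested clock genes with a promoter, those of the D-box in 2.19% and in 1 of 12. No other match overlaps the one in the Bhlhe40 window, and a match describes the letters only.

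**Figure D2:**
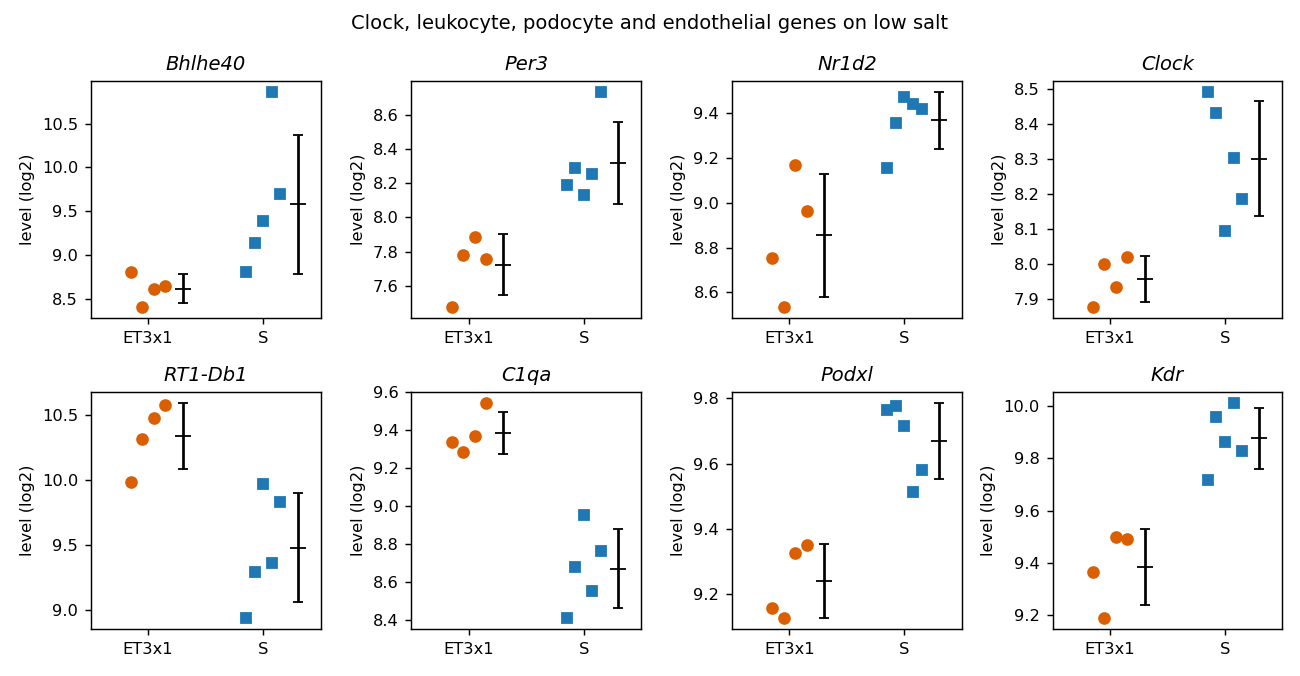
Deposited level (log2, vertical axis) of 4 clock genes, 2 leukocyte genes, a podocyte gene and an endothelial gene in each low salt rat, ET3x1 left of S, with the mean and SD of each group as a bar beside the points. The clock genes, Podxl and Kdr sit lower in ET3x1 and RT1-Db1 and C1qa higher. Nr1d2 alone of the 8 overlaps between groups.

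Leukocyte markers were higher in ET3x1 kidneys for 11 of the 19 tested, and 0 fell (57.9% higher, against 21.4% of all genes), and the median difference was 0.42. The same count was reached on the quantile scale, with the Gapdh or spike-in measure as a covariate and without both S rat 1 and ET3x1 rat 2, and it was 11 or 12 without any 1 rat. The mean of the 19 log2 levels was 9.16, 9.12, 9.15 and 9.28 in the ET3x1 rats, against 8.72, 8.85, 9.01, 8.74 and 8.92 in the S rats. Every ET3x1 rat was above every S rat. In whole kidney RNA more cells of a type and more RNA per cell cannot be told apart, and the same holds for fewer cells and less RNA.

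The class II molecules, which present peptides to helper T cells, carried part of this. RT1-Db1, a beta chain, read 9.99, 10.32, 10.47 and 10.58 in ET3x1 rats, against 8.94, 9.30, 9.97, 9.36 and 9.83 in S rats (0.86 ± 0.17, 1.81-fold higher, adjusted p = 0.000941). ET3x1 rat 1 was barely above S rat 3. RT1-Bb (0.59), RT1-Da (0.47) and the invariant chain Cd74 (0.49) also rose, while RT1-Ba did not pass. The complement C1q chains, made in tissue largely by macrophages, rose together. C1qc read 8.85, 8.82, 8.80 and 8.92 in ET3x1 rats, against 7.56, 7.86, 8.48, 8.07 and 8.37 in S rats (0.78 ± 0.16, 1.72-fold higher, adjusted p = 0.00112) and C1qa 9.34, 9.29, 9.37 and 9.55 in ET3x1 rats, against 8.41, 8.68, 8.95, 8.55 and 8.76 in S rats (0.71 ± 0.13, 1.64-fold higher, adjusted p = 0.000581), and C1qb was higher by 0.42. In C1qc and C1qa the ET3x1 rats were close to each other and above every S rat.

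Coro1a, a regulator of leukocyte actin, read 7.80, 7.74, 7.55 and 7.87 in ET3x1 rats, against 6.78, 7.06, 7.40, 6.83 and 7.19 in S rats (0.69 ± 0.13, 1.61-fold higher, adjusted p = 0.000617). Tyrobp (0.49) and Fcer1g (0.48), adaptor chains of myeloid receptors, and the lysosomal protein Laptm5 (0.41) were higher too. Markers that did not pass included the macrophage genes Cd68 (-0.04), Csf1r (0.17) and Lyz2 (0.17) and the T-cell genes Cd3e (-0.17) and Cd8a (-0.11). Of the erythroid genes, 3 of 10 were tested and 0 called, Hbb at -0.11 ± 0.20, adjusted p = 0.694 and Slc25a37 at 0.07 ± 0.09, adjusted p = 0.609.

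The proteasome, which breaks down proteins tagged with ubiquitin, had many genes higher. Of 35 tested subunits 20 were higher and 0 lower, with a median of 0.34, and the counts were 18 and 2 after quantile normalization. They depended on 1 rat, since 13 were called without ET3x1 rat 2, and 5 without both that rat and S rat 1 (where 7.42% of all genes were higher). Psmb8, a catalytic subunit of the immunoproteasome induced by interferon, read 8.00, 7.89, 8.11 and 8.28 in ET3x1 rats, against 7.21, 7.45, 7.99, 7.13 and 7.56 in S rats (0.60 ± 0.13, 1.51-fold higher, adjusted p = 0.00226), with ET3x1 rat 2 below S rat 3. The other immunoproteasome subunits Psmb9 (0.43) and Psmb10 (0.47) rose as well. Psmd3, a subunit of the regulatory cap, read 9.21, 9.57, 9.34 and 9.44 in ET3x1 rats, against 8.62, 8.75, 9.20, 8.70 and 8.99 in S rats (0.54 ± 0.11, adjusted p = 0.00104), and the cap ATPases Psmc3 and Psmc1 were 0.60 ± 0.17, 1.51-fold higher, adjusted p = 0.012 and 0.47 ± 0.12, adjusted p = 0.0047. Of the alpha ring, Psma7 alone was called (0.38).

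Lysosomal genes followed the same direction, with 9 of 19 higher, 2 lower and a median of 0.19. On the quantile scale 8 were higher and 3 lower. Hexa, the alpha subunit of beta-hexosaminidase, read 11.08, 11.47, 11.45 and 11.28 in ET3x1 rats, against 10.00, 10.19, 10.64, 10.41 and 10.82 in S rats (0.91 ± 0.13, 1.88-fold higher, adjusted p = 9.85e-05). Every ET3x1 rat was above every S rat. Npc2, a cholesterol carrier of the lysosome, was 1.46-fold higher (0.55 ± 0.08, adjusted p = 9.5e-05), Lamp1 of its membrane 1.51-fold higher (0.59 ± 0.14, adjusted p = 0.00377), and the protease Ctsd 1.47-fold higher (0.56 ± 0.14, adjusted p = 0.00438). Asah1 (-0.39) and Ctsc (-0.36) were the pair that fell, though the count of lower genes was 1 without S rat 2, 3, 4 or 5 or ET3x1 rat 3, and 0 without ET3x1 rat 2.

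**Figure D3:**
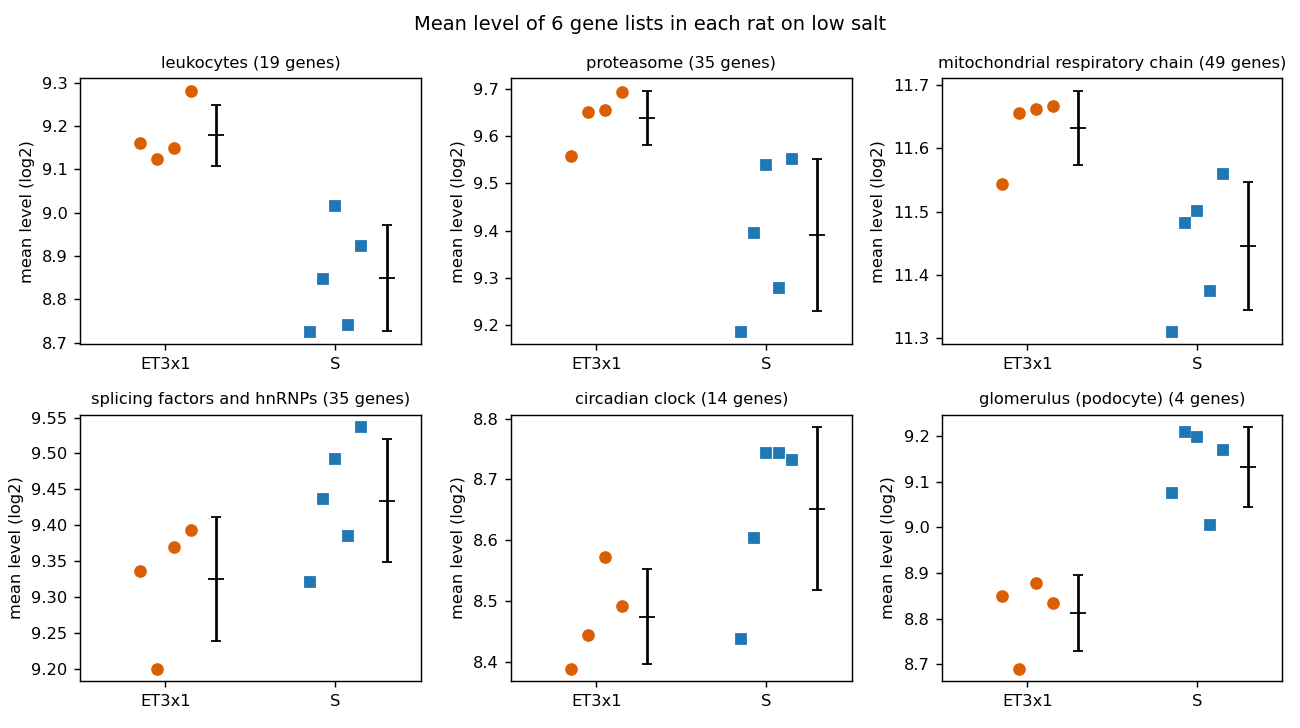
Mean of the log2 levels of the tested genes of 6 lists in each low salt rat (vertical axis, log2), ET3x1 left of S, with the mean and SD of each group. Leukocyte and proteasome means are higher, and the podocyte mean lower, in all 4 ET3x1 rats than in all 5 S rats. The other 3 lists overlap between groups.

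Many respiratory chain genes were higher. Of 49 tested 21 rose, 2 fell and the median was 0.16, against 18 and 5 on the quantile scale. Without ET3x1 rat 2, 14 rose and 1 fell, without ET3x1 rat 3 the counts were 15 and 1, and without both ET3x1 rat 2 and S rat 1 they were 7 and 0. Complex I gave the largest values. Ndufb7, an accessory subunit, read 10.14, 10.68, 10.64 and 10.53 in ET3x1 rats, against 9.65, 9.81, 9.84, 9.82 and 9.91 in S rats (0.69 ± 0.13, 1.61-fold higher, adjusted p = 0.000883). The lowest ET3x1 rat, rat 1, was above the highest S rat. The iron-sulphur subunits Ndufs8 and Ndufs7 were 0.69 ± 0.14, 1.61-fold higher, adjusted p = 0.00163 and 0.65 ± 0.15, 1.57-fold higher, adjusted p = 0.00332, and Ndufv1, which takes electrons from NADH, was 0.64 ± 0.14, 1.56-fold higher, adjusted p = 0.00213. Cox7b (-0.30) and Uqcrc2 (-0.27) were the 2 that fell.

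Breakdown of branched-chain and other amino acids held some of the larger differences. In the list of creatine synthesis, amino acid breakdown and gluconeogenesis 9 of 24 rose and 2 fell, and on the quantile scale 5 rose and 3 fell. The lower count was 0 without S rat 1, S rat 5 or ET3x1 rat 2 and 1 without S rat 3, ET3x1 rat 1 or ET3x1 rat 3. Bckdha, the E1 alpha subunit of the branched-chain ketoacid dehydrogenase, read 8.49, 8.75, 8.74 and 8.61 in ET3x1 rats, against 6.76, 7.60, 8.01, 7.81 and 8.28 in S rats (0.96 ± 0.21, 1.94-fold higher, adjusted p = 0.00249). S rat 1 was far below the other S rats, and the difference was 0.73 at its smallest with 1 rat left out. Prodh2, of hydroxyproline breakdown, was 1.72-fold higher (0.78 ± 0.11, adjusted p = 5.56e-05). Ivd of leucine breakdown (0.75 ± 0.18, 1.68-fold higher, adjusted p = 0.00408) and Asl of the urea cycle and arginine synthesis (0.73 ± 0.17, 1.66-fold higher, adjusted p = 0.00367) also rose, and Aldh6a1 (-0.35) and Oat (-0.26) fell. Pck1, the gluconeogenic enzyme, was not called (-0.27).

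Fatty acid oxidation enzymes gave 7 higher and 0 lower of 22, a share of 31.8% against 21.4% of all genes. On the quantile scale 4 were higher and 2 lower, and on the deposited scale 4 were higher without S rat 1, ET3x1 rat 2 or ET3x1 rat 3. Without ET3x1 rat 1 or rat 4, 1 was lower. Acads, the short-chain acyl-CoA dehydrogenase, read 10.22, 10.63, 10.42 and 10.44 in ET3x1 rats, against 9.59, 9.74, 9.97, 9.82 and 9.94 in S rats (0.62 ± 0.13, 1.53-fold higher, adjusted p = 0.0013). The groups were well apart. Etfb, Hadha and Acadvl were higher by 0.41, 0.38 and 0.35, the Hadha call being lost without any of 6 rats (0.24 without S rat 1), while Cpt1a, which admits fatty acids to mitochondria, was not called (-0.17).

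Ribosomal protein genes were higher in 10 of 37 and lower in 1 (7 and 3 on the quantile scale). These shares, 27.0% and 2.70%, stand against 21.4% and 8.42% of all genes, so the higher share was near the background. On the quantile scale 18.6% of all genes were higher. Rps15 led them (0.74 ± 0.14, 1.67-fold higher, adjusted p = 0.000718), with Rpsa at 0.60 ± 0.11, 1.52-fold higher, adjusted p = 0.000696, Rpl18 at 0.48 ± 0.13, adjusted p = 0.00733 and Rps28 at 0.47 ± 0.09, adjusted p = 0.000708. Rps6 was the single gene lower, and it was not called without S rat 2, S rat 3, S rat 5, ET3x1 rat 1, ET3x1 rat 2 or ET3x1 rat 4. Antioxidant genes were higher in 9 of 26 and lower in 2, against 6 and 3 on the quantile scale. Without ET3x1 rat 2 only 2 of the 26 were higher, without S rat 1 5, and without both 0. Gpx4, which reduces lipid peroxides, was higher (0.58 ± 0.17, adjusted p = 0.0153), a call lost without S rat 1 (0.38) or ET3x1 rat 2. Prdx5 and Hmox2 rose by 0.39 each, Hmox2 losing its call without ET3x1 rat 2. Nqo1 (-0.31) and Gclc (-0.29) were lower.

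A pair of podocyte genes, Podxl and Synpo, fell. Of 10 markers 8 were on the chips and 4 passed the filter, and 2 of these fell and 0 rose, with a median of -0.37. Podxl, the charged sialoprotein that keeps podocyte foot processes apart, read 9.16, 9.13, 9.33 and 9.35 in ET3x1 rats, against 9.76, 9.78, 9.71, 9.51 and 9.58 in S rats (-0.43 ± 0.08, adjusted p = 0.000708). Synpo, an actin-associated protein of the foot process, read 8.62, 8.36, 8.68 and 8.67 in ET3x1 rats, against 8.90, 9.12, 9.08, 8.98 and 8.96 in S rats (-0.43 ± 0.08, adjusted p = 0.000871). In both, all ET3x1 rats were below all S rats. Cd2ap (-0.30) and Ptpro (-0.11) did not pass. On high salt, in other rats, Podxl gave -0.64 ± 0.08 (adjusted p = 3.27e-05) and Synpo -0.57 ± 0.08 (adjusted p = 0.000153).

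Vessel markers did not move as a group, with 2 of 10 endothelial genes higher and 1 lower. Kdr, the main receptor for vascular endothelial growth factor A and abundant in glomerular capillaries, read 9.36, 9.19, 9.50 and 9.49 in ET3x1 rats, against 9.72, 9.96, 9.86, 10.01 and 9.83 in S rats (-0.49 ± 0.10, adjusted p = 0.00125). The groups were far apart, and on high salt Kdr was again lower (-0.68 ± 0.10, adjusted p = 0.00016). Its ligand Vegfa, made by podocytes and tubules, was lower on low salt as well (-0.27 ± 0.10, adjusted p = 0.0429), although the call was lost without S rat 3, 4 or 5 or ET3x1 rat 2, 3 or 4. Ramp2 and Icam2 rose (0.37 ± 0.10, adjusted p = 0.00731 and 0.31 ± 0.08, adjusted p = 0.00519). Of 8 smooth muscle and mesangial genes 3 fell and 1 rose. Myh11, smooth muscle myosin, read 7.60, 7.78, 7.68 and 7.72 in ET3x1 rats, against 8.05, 8.03, 8.21, 8.09 and 8.01 in S rats (-0.38 ± 0.06, adjusted p = 0.000236). Itga8, the integrin alpha chain of mesangial cells, was 1.31-fold lower (-0.39 ± 0.08, adjusted p = 0.000895), and Mylk, the kinase of myosin light chain, was -0.36 ± 0.10, adjusted p = 0.00739. Myl9, a light chain, was the one that rose (0.39 ± 0.10, adjusted p = 0.00648).

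**Figure D4:**
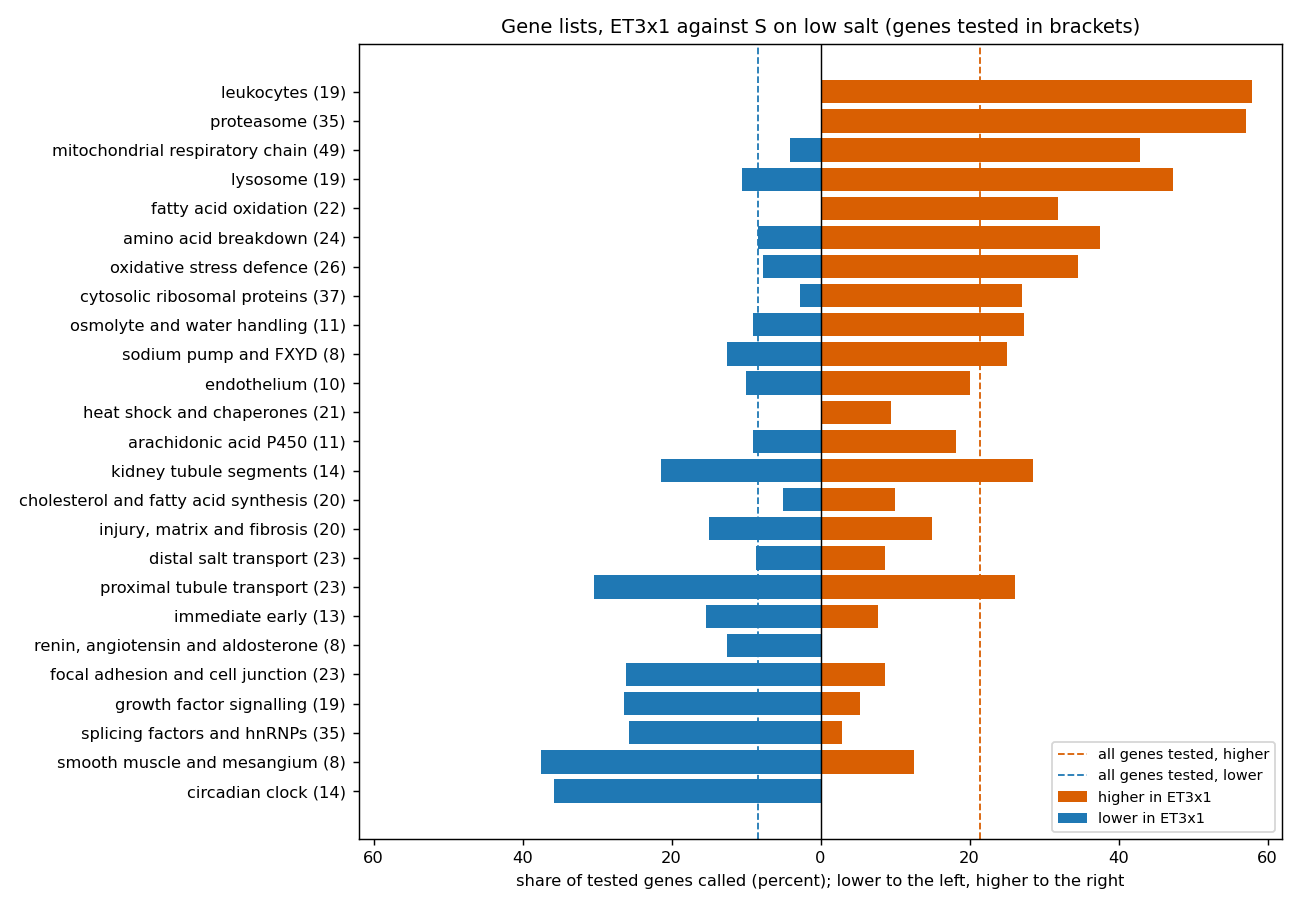
Share of the tested genes of each list called higher in ET3x1 (right) or lower (left), in percent of the number in brackets, for lists with at least 8 tested genes, with dashed lines at the shares of all 8825 genes (21.4% higher and 8.42% lower). Leukocyte and proteasome genes have 57.9% and 57.1% higher and 0% lower, and clock genes 35.7% lower and 0% higher.

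Few genes of salt transport beyond the proximal tubule were called on the deposited scale. In the list for the thick ascending limb, distal tubule and collecting duct 2 of 23 genes rose and 2 fell. Each share was 8.70%, against 21.4% higher and 8.42% lower of all genes. The furosemide-sensitive cotransporter Slc12a1 (-0.29), the thiazide-sensitive Slc12a3 (0.15) and the sodium channel subunits Scnn1a (0.23) and Scnn1b (0.12) did not pass. Higher counts reached 4 without S rat 5 and lower ones 1 without ET3x1 rat 2. On the quantile scale, where 12.6% of all genes were lower, 6 of the 23 fell. Scnn1g, the gamma subunit of the epithelial sodium channel, read 8.37, 8.28, 8.33 and 8.24 in ET3x1 rats, against 8.64, 8.73, 8.58, 8.58 and 8.69 in S rats (-0.34 ± 0.07, adjusted p = 0.00139). Both groups were tight and lay apart. Bsnd, the barttin subunit of kidney chloride channels, was higher (0.35 ± 0.10, adjusted p = 0.0111) and the kinase Wnk1 lower (-0.25 ± 0.08, adjusted p = 0.0251), a call lost without ET3x1 rat 2. Nedd4, a ubiquitin ligase, was higher on its brightest probe set (0.94 ± 0.18, 1.91-fold higher, adjusted p = 0.000749) and lower on another (-1.01 ± 0.23, 2.01-fold lower, adjusted p = 0.00273), so no direction can be given for the gene.

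The markers of tubule segments did not shift together, with 4 of 14 higher and 3 lower, or 3 and 4 on the quantile scale. Proximal transporters went both ways, 6 of 23 higher and 7 lower, against 3 and 9 on the quantile scale. The 7 lower became 1 without ET3x1 rat 2, and 4 without S rat 5 or ET3x1 rat 3. Aqp1, the water channel of the proximal tubule and thin limb, read 12.37, 12.44, 12.52 and 12.55 in ET3x1 rats, against 11.82, 11.94, 12.33, 11.96 and 12.25 in S rats (0.41 ± 0.11, adjusted p = 0.00703). Slc22a2, an organic cation transporter, was 1.34-fold higher (0.42 ± 0.10, adjusted p = 0.00517), and the glucose transporter Slc5a2 1.27-fold higher (0.35 ± 0.09, adjusted p = 0.00735), which was not called on the quantile scale. The endocytic receptors Lrp2 (-0.33) and Cubn (-0.25), the sodium-proton exchanger Slc9a3 (-0.30) and the organic anion carrier Slco1a1 (-0.53 ± 0.19, adjusted p = 0.0382) were lower. The Slco1a1 call did not hold without any 1 of 6 rats.

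Of the sodium pump list 2 of 8 genes rose and 1 fell. These shares, 25% and 12.5%, were near the 21.4% and 8.42% of all genes. Fxyd5 and Fxyd1, regulators of the pump, were 0.42 ± 0.10, adjusted p = 0.00459 and 0.26 ± 0.07, adjusted p = 0.00798, and the pump's Atp1b3 subunit was -0.32 ± 0.09, adjusted p = 0.0125, a call lost without ET3x1 rat 2. Of 17 renin, angiotensin and aldosterone genes 8 were tested and 12.5% called lower, also near the share of all genes. Enpep, the aminopeptidase that trims angiotensin II, was the one called. It read 10.19, 10.00, 10.21 and 10.26 in ET3x1 rats, against 10.36, 10.43, 10.35, 10.47 and 10.65 in S rats (-0.29 ± 0.08, adjusted p = 0.00989), and the call was lost without ET3x1 rat 2. Without S rat 5, 1 gene of the list was higher, and without ET3x1 rat 1, 2 were lower. Sgk1, a kinase induced by aldosterone (-0.28), the cortisol-inactivating enzyme Hsd11b2 (0.23) and the receptor Agtr1a did not pass.

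Among osmolyte genes 3 of 11 rose and 1 fell, against 2 and 2 on the quantile scale. The shares, 27.3% and 9.09%, were near the 21.4% and 8.42% of all genes. Slc5a3, the sodium-coupled myo-inositol transporter, read 8.73, 8.64, 8.88 and 8.60 in ET3x1 rats, against 7.29, 7.50, 8.41, 8.13 and 8.72 in S rats (0.70 ± 0.20, 1.63-fold higher, adjusted p = 0.0116). S rat 5 was within the ET3x1 range. Nfat5, the transcription factor that drives osmolyte genes, was lower (-0.40 ± 0.10, adjusted p = 0.00464). Sord, the enzyme that turns sorbitol into fructose, was higher (0.29 ± 0.07, adjusted p = 0.00586), a call lost on the quantile scale. The 1 lower gene became 2 without S rat 3 or S rat 4.

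Injury and matrix genes showed no common direction, 3 of 20 higher and 3 lower, against 2 and 6 on the quantile scale. Spp1, osteopontin, a secreted phosphoprotein that damaged tubules make in quantity, read 11.32, 10.81, 10.86 and 11.29 in ET3x1 rats, against 11.60, 11.70, 11.96, 11.47 and 11.92 in S rats (-0.66 ± 0.13, 1.58-fold lower, adjusted p = 0.000788). No ET3x1 rat reached the lowest S rat, and on high salt Spp1 was again lower (-0.61 ± 0.13, adjusted p = 0.00266). Fn1 (-0.31) and Cd44 (-0.17) were lower too. Timp2, an inhibitor of matrix proteases, rose (0.40 ± 0.09, adjusted p = 0.00333), and Tgfb1 (0.41 ± 0.14, adjusted p = 0.0376) and Col1a1 (0.39 ± 0.13, adjusted p = 0.0336) had calls that 5 and 6 single rats could undo. The 3 higher genes were 1 without S rat 1, S rat 2, S rat 4, ET3x1 rat 2 or ET3x1 rat 3, and the 3 lower ones 1 without ET3x1 rat 2. Lcn2, an early marker of tubule injury, was not called (0.01).

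Of 23 adhesion and junction genes 6 were lower and 2 higher, and 9 and 1 on the quantile scale. Fat1, a giant cadherin of podocytes and tubules, read 9.64, 9.32, 9.57 and 9.73 in ET3x1 rats, against 10.13, 10.33, 10.50, 10.04 and 10.35 in S rats (-0.70 ± 0.10, 1.63-fold lower, adjusted p = 9.5e-05). All ET3x1 rats were below all S rats. Tjp1 of tight junctions (-0.49 ± 0.12, adjusted p = 0.00424), the actin cross-linkers Actn4 (-0.48 ± 0.11, adjusted p = 0.0022) and Pls3 (-0.47 ± 0.12, adjusted p = 0.00478), Vcl by its brightest probe set and Actn1 (-0.22) fell as well. Zyx (0.35) and Pxn (0.26) of focal adhesions were the 2 that rose, becoming 1 without S rat 1, ET3x1 rat 2, ET3x1 rat 3 or ET3x1 rat 4. In growth factor signalling 5 of 19 genes were lower and 1 higher, and 8 and 1 on the quantile scale. Irs2, the insulin receptor substrate, was lower (-0.68 ± 0.20, adjusted p = 0.0151), Egfr and Erbb3 were each lower, at -0.26, and Fgfr1 was higher (0.29 ± 0.08, adjusted p = 0.0111). The 5 became 3 without ET3x1 rat 3 or ET3x1 rat 4.

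Of 35 splicing factor genes 9 were lower and 1 higher, and 16 and 0 on the quantile scale. The lower count was 1 without ET3x1 rat 2 and 5 without S rat 5, and the higher one 0 without S rat 1, S rat 4, ET3x1 rat 2 or ET3x1 rat 3 and 2 without ET3x1 rat 1. Ddx17, an RNA helicase, read 8.09, 7.66, 7.84 and 7.81 in ET3x1 rats, against 7.93, 8.07, 8.34, 8.32 and 8.83 in S rats (-0.45 ± 0.15, adjusted p = 0.0254), with overlapping groups and a call lost without S rat 5 or ET3x1 rat 2, 3 or 4. Hnrnpf (-0.38 ± 0.10, adjusted p = 0.00841) and Rbm39 (-0.35 ± 0.10, adjusted p = 0.0104) also fell, both calls being lost without ET3x1 rat 2, and U2af1 rose (0.39 ± 0.15, adjusted p = 0.0497), a call that 6 single rats could undo. Of 21 chaperone genes Hspb1 (0.64 ± 0.15, 1.56-fold higher, adjusted p = 0.00306) and Dnajb1 (0.54 ± 0.10, adjusted p = 0.000569) rose and 0 fell, whereas 5 were lower on the quantile scale and 1 without S rat 1, S rat 3, ET3x1 rat 1 or ET3x1 rat 4.

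Small numbers of genes changed in the last lists, to be set against 21.4% higher and 8.42% lower over all genes. For arachidonic acid metabolism 18.2% were higher and 9.09% lower, near those shares. Of 13 immediate early genes Klf4 (-0.42 ± 0.11, adjusted p = 0.00568) and Klf6 (-0.37 ± 0.12, adjusted p = 0.0208) fell and Jund rose (0.39 ± 0.14, adjusted p = 0.0359). The higher count was 0 without S rat 1, S rat 2, ET3x1 rat 2 or ET3x1 rat 3, and the lower count 1 without S rat 1 or ET3x1 rat 2. Of 20 genes of cholesterol and fatty acid synthesis Mvk (0.29 ± 0.08, adjusted p = 0.00745) and Elovl6 (0.27 ± 0.09, adjusted p = 0.0315) rose and Sqle fell (-0.35 ± 0.10, adjusted p = 0.0124). The higher count was 1 without S rat 1, S rat 4, ET3x1 rat 2 or ET3x1 rat 3, and the lower count 0 without ET3x1 rat 2. Of 11 genes of arachidonic acid metabolism Ptgds (0.41 ± 0.11, adjusted p = 0.00915) and Ptges (0.23 ± 0.06, adjusted p = 0.00371), synthases of prostaglandins D2 and E2, rose, and Hpgd, which inactivates prostaglandins, fell (-0.55 ± 0.15, adjusted p = 0.00859).

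The R segment that defines the congenic strains lies on chromosome 3, and its ends are not in the sources used here. Of 669 tested genes on chromosome 3, 214 were called (32.0%), against 29.7% of the 8124 tested genes elsewhere. Chromosome 3 ranked 6 of 21, and the share ran from 22.5% on chromosome 18 to 34.4% on chromosome 1. Along chromosome 3, cut in gene order into 10 equal stretches, it was between 20.9% and 44.8%, highest in the first 2 stretches and 34.8% in the last. By this measure the called genes were spread over the genome.

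Rtel1, a DNA helicase that protects telomeres, encoded on distal chromosome 3, had the smallest adjusted p of the named genes. It read 7.99, 7.96, 7.97 and 8.04 in ET3x1 rats, against 7.26, 7.20, 7.10, 7.15 and 7.15 in S rats (0.82 ± 0.07, 1.76-fold higher, adjusted p = 1.53e-07). Both groups were almost uniform and wide apart, and with any 1 rat left out the difference stayed between 0.80 and 0.84. On high salt it was 0.60 ± 0.07 (adjusted p = 3.27e-05). The second Rtel1 probe set gave 0.24 ± 0.08 (adjusted p = 0.0378), with overlapping groups and a call lost without S rat 1, 2 or 3 or ET3x1 rat 3 or 4. The difference in hybridisation that a sequence variant under a probe would give was not tested.

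Other chromosome 3 genes called in the same direction on both diets were led by Psmc3 and Mdk. By their brightest probe set 33 of 669 chromosome 3 genes were called so (4.93%), against 4.30% of genes elsewhere and 6.67% on chromosome 9. The share on chromosome 3 was thus near that of the other chromosomes. Mdk, midkine, a heparin-binding growth factor of the kidney, read 8.69, 9.12, 8.83 and 8.92 in ET3x1 rats, against 8.45, 8.34, 8.31, 8.24 and 8.23 in S rats (0.58 ± 0.08, adjusted p = 8.81e-05), and on high salt it was 0.35 ± 0.08 (adjusted p = 0.00729). The ET3x1 rats were above the S rats throughout. Eif6, which keeps ribosomal subunits apart (0.54 ± 0.11, adjusted p = 0.00176), Manbal (0.45 ± 0.12, adjusted p = 0.00919), Wfdc10a (0.44 ± 0.12, adjusted p = 0.0101) and Ptges2 (0.44 ± 0.09, adjusted p = 0.0013) were higher. Zfp106 (-0.50 ± 0.12, adjusted p = 0.00442) and Gpd2, the mitochondrial glycerol phosphate dehydrogenase (-0.44 ± 0.10, adjusted p = 0.00255), were lower.

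The same strain comparison in 9 other rats on high salt gave 2246 calls (14.5%), 756 higher (4.89%) and 1490 lower (9.63%). With the Gapdh 3' minus 5' measure as a covariate, which separated the strains on high salt, it gave 227 calls, 42 higher and 185 lower, and with bioD minus bioC 653, 246 higher and 407 lower. The count of 2246 was 1202 without ET3x1 high salt rat 3 and 1126 without its rat 4. Of the low salt calls 734 were made in the same direction on high salt, which is 17.7% of the low and 32.7% of the high salt calls, 308 of them higher and 426 lower. Another 60 were called in opposite directions. Across probe sets the differences on the 2 diets had a Pearson correlation of 0.34, with no rat in common. For the low salt calls the median difference was 0.34 on low salt and, counted in the same direction, 0.11 on high salt. Picking them by their low salt values raises the first median, so the drop does not measure an effect of diet. The high salt calls had a median size of 0.33 on high salt.

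Of all genes 4.39% were higher and 8.35% lower on high salt. There 5 of the 14 clock genes were lower and 0 higher, with Per3 at -0.70 ± 0.10 (adjusted p = 0.000121). Clock, Nr1d2 and Per3 were the 3 called on both diets, while Bhlhe40 (-0.26, adjusted p = 0.455) and Hlf (-0.13, adjusted p = 0.303) did not pass on high salt and Tef and Bhlhe41 were called there instead. Of the 4 podocyte genes 3 were lower. Leukocyte markers had 1 of 19 higher and proteasome subunits 2 of 35. The test of the difference between diets was called, with a positive value, for 2 of 19 leukocyte and 5 of 35 proteasome genes. It was called for 0 clock and 0 podocyte genes. Over all 8825 genes it was called with a positive value for 434 and a negative one for 78. RT1-Db1 was among the leukocyte genes (1.17 ± 0.24, adjusted p = 0.007), a call lost with either covariate described below (adjusted p = 0.0938 and 0.079). For most members of these lists the diets are therefore not shown to differ.

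The test of whether the strain difference depended on diet, the difference on low salt minus that on high salt, was called for 850 probe sets (5.49%), 631 positive (4.08%) and 219 negative (1.42%). In 557 the strain difference was above 0 on low and below 0 on high salt, in 189 the reverse, and in 104 it had 1 sign. Evi5 had the largest value of the genes with 1 symbol, 3.05 ± 0.30 (adjusted p = 7.3e-07). Its means were 9.41 ± 0.35 in ET3x1 and 7.83 ± 0.26 in S rats on low salt, and 7.66 ± 0.53 in ET3x1 and 9.13 ± 0.42 in S rats on high salt (SD, n = 4 and 5). Tns1 averaged 9.75 in ET3x1 and 8.60 in S rats on low salt, and 8.45 in ET3x1 and 9.52 in S rats on high salt (2.21 ± 0.20, adjusted p = 2.78e-07). The coiled-coil protein gene Ccdc6 (1.91 ± 0.27, adjusted p = 0.000178) and Cpd, a Golgi carboxypeptidase (1.82 ± 0.27, adjusted p = 0.000327), were also higher in ET3x1 on low salt and lower on high salt.

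On the negative side Vcl gave -1.83 ± 0.34 (adjusted p = 0.00255), Kpna1 -1.60 ± 0.37 (adjusted p = 0.0149), Peli2 -1.58 ± 0.28 (adjusted p = 0.0015) and Sppl2a -1.47 ± 0.22 (adjusted p = 0.000327). For Vcl, Kpna1 and Peli2 the strain difference on high salt was not called, at 0.14, 0.49 and 0.22, while Sppl2a was called higher in ET3x1 there (0.48, adjusted p = 0.0387). Of the 12 genes with the largest low salt differences each way, 8 of the higher and 9 of the lower had a called dependence on diet, 4 and 0 with the Gapdh measure as a covariate and 4 and 1 with the bioD minus bioC one. These genes were picked by the low salt difference, which is part of the tested value, so the choice raises this share. Over all tested probe sets 5.49% were called. Ap2s1, Metrn and Il6st were called in the same direction on both diets.

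These diet counts changed when an array quality measure was added as a covariate and when single rats were left out. The 3' minus 5' difference of the Gapdh controls on RAE230A lay between 0.556 and 0.612 in ET3x1 rats on high salt, against 0.735 to 0.873 in S rats on high salt, while the low salt groups overlapped. On high salt the parts of strain and of this measure therefore cannot be told apart. With that measure as a covariate 27 of the 850 were called, all 850 kept their sign and their median size was 0.89 of the original, with standard errors 1.30 times as large. With the bioD minus bioC measure 56 of the 850 were called. Evi5 (adjusted p = 0.000316 and 0.00109 under the 2 covariates), Tns1 (8.31e-06 and 3.47e-06) and Cpd (0.0323 and 0.0078) were called under both, Vcl under neither (0.22 and 0.0621). The count was 549 without S high salt rat 2, 566 without S low salt rat 1, 434 and 479 without ET3x1 high salt rats 3 and 4, and 1547, 313 and 308 without ET3x1 low salt rats 1, 2 and 3.

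**Figure D5:**
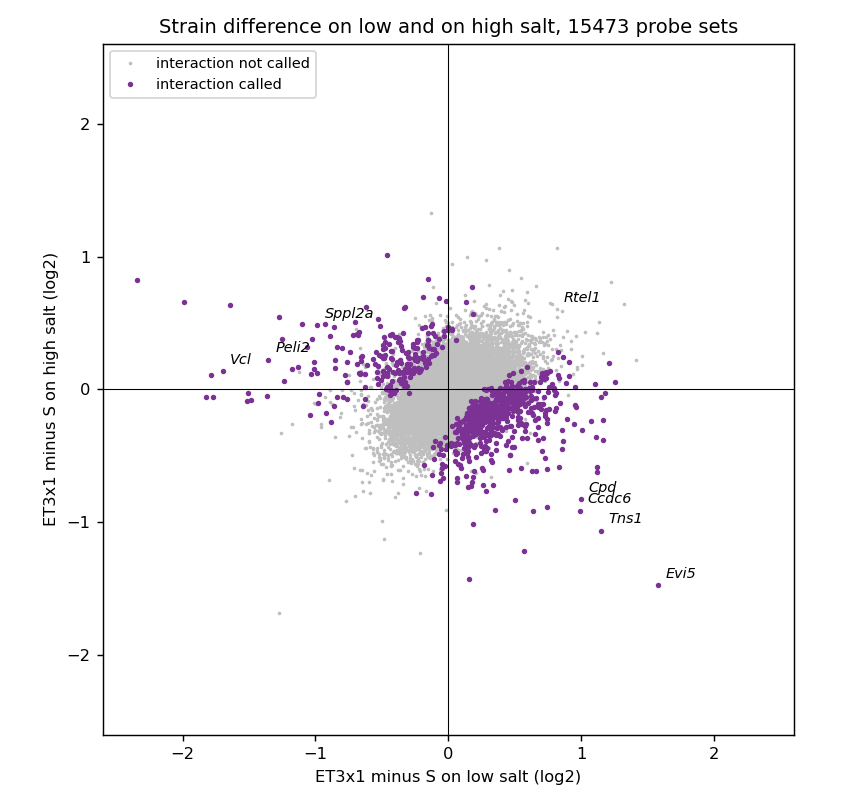
Difference ET3x1 minus S (log2) on low salt (horizontal axis) and on high salt (vertical axis) for the 15473 tested probe sets, with the 850 called for a dependence on diet in purple and some named genes marked. Evi5, Tns1, Ccdc6 and Cpd lie at the lower right, higher in ET3x1 on low and lower on high salt. Vcl, Peli2 and Sppl2a lie left of 0, and Rtel1 at the upper right.

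The second congenic strain allowed a test of what set ET3x1 apart on the same diet. ET3x1 minus ET3x2 on low salt was called for 422 probe sets (2.73%), 268 higher (1.73%) and 154 lower (0.995%). The count was 256, 165 and 188 without ET3x1 rats 1, 3 and 4, and 236 and 191 without ET3x2 rats 2 and 4. This comparison and the one with S share the ET3x1 rats, so their values stand side by side below.

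Of the 24 largest genes Peli2 was the one that also differed between the congenic strains, at 7.11 ± 0.28 in ET3x1 and 8.05 ± 0.34 in ET3x2 rats (-0.94 ± 0.20, adjusted p = 0.0114). The largest differences with ET3x1 above ET3x2 were in COX1, a mitochondrial subunit of complex IV (1.42 ± 0.26, adjusted p = 0.00385), Pgpep1 (1.07 ± 0.16, adjusted p = 0.000885) and Gatm, the first enzyme of creatine synthesis (1.02 ± 0.13, adjusted p = 8.67e-05). COX1, Pgpep1 and Gatm were not called between ET3x1 and S (0.41, 0.38 and -0.08). Maf followed at 0.91 ± 0.16 (adjusted p = 0.0031). Lower in ET3x1 than in ET3x2 were Cyp1a1, a hydrocarbon-induced P450 (-0.88 ± 0.17, adjusted p = 0.00608), Ngb (-0.54 ± 0.10, adjusted p = 0.00533) and Tob2 (-0.51 ± 0.09, adjusted p = 0.00414).

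Cyp1a1 was also below S, reading 8.99, 9.01, 9.04 and 8.96 in ET3x1 rats, against 9.38, 9.43, 10.02, 9.81 and 9.35 in S rats (-0.60 ± 0.16, 1.52-fold lower, adjusted p = 0.0088). ET3x1 rats were nearly equal to each other and all under the lowest S rat. Between the congenic strains 8 of the 19 lysosomal genes were higher in ET3x1, Hexa (0.55, adjusted p = 0.0343) and Npc2 (0.34, adjusted p = 0.028) among them. Over all 8825 genes 194 were higher and 102 lower. Leukocyte markers and proteasome subunits had 0 called, which says little of these lists when so few of all genes were called. Clock genes had 2 lower, with Per3 at -0.38 (adjusted p = 0.0444). On low salt Rtel1 averaged 7.99 ± 0.04 in ET3x1 and 8.20 ± 0.18 in ET3x2 rats, a difference of -0.21 ± 0.08 that was not called (adjusted p = 0.151).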

How the data were processed

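Total RNA (15 microgram a sample) from the left kidney of each rat was hybridised to Affymetrix RAE230A and RAE230B arrays, per the labels' protocols. The authors deposited 1 value a probe set and array, on a log2 scale by its range (4.11 to 14.69 on RAE230A and 3.40 to 13.44 on RAE230B). How the probe sets were summarised and normalized was not given in the sources used here, so values were used as deposited, with no further normalization. Their background correction and centring are unknown.

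Left out were the 57 control probe sets on each chip and those whose mean over all arrays was below the chip's median (7.51 and 6.38), leaving 7933 and 7540. Each chip was fitted with limma 3.58.1 in R 4.3.3 (group means of all 26 rats in 6 groups, 20 residual degrees of freedom, empirical Bayes with an intensity trend), and two-sided p-values were adjusted over both chips by the Benjamini-Hochberg method. Tables and figures were made with Python 3.11.15, pandas 2.3.3, scipy 1.17.1 and matplotlib 3.10.9. The fit was tested on simulated data. Symbols came from the platform annotation, updated through RefSeq's GRCr8 gene table: of the tested probe sets 11110 carried 1 symbol, 274 more than 1 and 4089 no symbol. The labels do not say more of how rats within a group were related, and the fit took them as independent. The p-values set group means against the spread between rats within the 6 groups, and the number of rats limits the precision.

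The genes named are the 12 with the largest called difference each way among genes with 1 symbol (by the probe set of smallest p), the 4 each way for the dependence on diet and for ET3x1 minus ET3x2, up to 4 called members of each list with the largest difference (where 0 were called, the 2 of largest statistic), the 8 chromosome 3 genes called alike on both diets with the largest difference, Rtel1, and every probe set over 2-fold. Other list members named with a value were chosen after their values were seen. A list's genes are represented by their brightest probe set. The 29 lists and the genes were chosen with earlier results of these data known. Alternatives were quantile normalization, median centring, other filters, array weights, covariates, p-values adjusted per chip, a fit with no trend, fits of the compared groups alone, gene means over probe sets, and leaving out each rat. Leaving out S rat 1 and ET3x1 rat 2 together, and covariates for the lists, were chosen after seeing the data.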

Additional observations from a re-analysis of the deposited data

Results flagged for a closer look

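Each group's extreme rats were judged by the gap to the nearest neighbour as a share of the group's range (Dixon's 95% limit). Chance gives about 1 in 20 for independent values. The groups share the same rats and mostly hold probe sets picked by their differences, so that rate is no yardstick here. A single rat stood apart from the other rats of its group in 35 of 352 groups of values looked at (9.94%). S rat 4 was that rat, with the highest log2 level of its group, for Vcl (10.83), Gnb1 (12.02), Kpna1 (10.77), Map3k12 (10.99), Dync1li1 (12.23), Usp46 (10.15), 1371776_at (11.54), 1374485_at (11.64), 1375343_at (10.86), 1385594_at (9.34), 1385889_at (11.74), 1390100_s_at (10.36), 1390116_at (11.03), 1390351_at (9.94), 1390722_at (11.90), 1393268_at (9.43), 1377743_at (10.07), 1379690_at (10.60), 1379830_at (8.18), 1380685_at (8.36) and 1395745_at (8.83). ET3x1 rat 2 was highest for Cmip (9.49). ET3x1 rat 1 was lowest for Icam2 (7.93), Prdx5 (11.34), Ndufv1 (11.18) and Rpl18 (12.14). S rat 5 was highest for Per3 (8.73) and Wfdc10a (7.65). S rat 1 was lowest for Fxyd5 (7.56), Rps28 (10.72) and Pls3 (8.63). ET3x1 rat 3 was highest for Eif6 (11.16). Of the quality measures on RAE230B, the SD over probe sets was low in ET3x1 rat 4 (1.32) and high in S rat 5 (1.38), and bioD minus bioC was low in ET3x1 rat 2 (1.98).

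The named probe sets were chosen in part by their low salt difference or by their dependence on diet. This raises the share called for that dependence, which was 5.49% over all tested probe sets. For 57 of the 166 named probe sets the strain difference depended on diet by limma's test of the low salt difference minus the high salt one (Benjamini-Hochberg adjusted p below 0.05). The value was positive for Evi5 (3.05), Tns1 (2.21), Ccdc6 (1.91), Cpd (1.82), Cmip (1.74), Mmp14 (1.70), 1381100_at (1.54), 1390592_at (1.47), 1390436_at (1.39), 1392653_at (1.31), Mgll (1.31), Sf3b1 (1.21), Dapk3 (1.21), 1398846_at (1.20), Slc5a3 (1.17), RT1-Db1 (1.17), Espn (1.06), 1377774_at (1.01), Hspb1 (0.83), Col1a1 (0.74), Fgfr1 (0.74), Hexa (0.70), Prdx5 (0.55), Psmd3 (0.53), Rps28 (0.49) and Npc2 (0.41). It was negative for 1385889_at (-3.17), 1377743_at (-2.64), 1391552_at (-2.28), 1390722_at (-1.89), Vcl (-1.83), 1397185_at (-1.82), 1395010_at (-1.77), 1375343_at (-1.72), 1385594_at (-1.63), Kpna1 (-1.60), Peli2 (-1.58), 1380685_at (-1.49), Sppl2a (-1.47), 1374485_at (-1.43), Wtap (-1.42), 1390116_at (-1.41), 1395745_at (-1.41), 1379690_at (-1.38), 1379830_at (-1.33), Gnb1 (-1.32), 1393268_at (-1.29), 1371776_at (-1.29), Nedd4 (-1.21), Dync1li1 (-1.16), Map3k12 (-1.15), Slco1a1 (-1.06), Usp46 (-0.88), 1379706_at (-0.85), Hpgd (-0.83), Actn4 (-0.72) and Rbm39 (-0.48). Over all tested probe sets 27 of the 850 such calls remained with the Gapdh measure as a covariate.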

How the results depend on the processing

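The number of probe sets called between ET3x1 and S on low salt (4150) was 7187 without the filter on dim probe sets and 2353 for the brightest 25% of each chip, since more or fewer were tested. It ranged from 2448 to 4355 as each rat was left out, and was 1534 without S rat 1 and ET3x1 rat 2, a setting chosen after seeing the data. Under the other 8 alternatives it stayed within 1.5 times, from 3015 in a fit of the 9 rats alone to 5352 with array weights. On high salt (2246) the count was 3940 without the filter, 1005 for the brightest 25%, 227 with the Gapdh covariate, 653 with the bioD minus bioC covariate, and 1126 to 2212 without 1 rat. For the dependence on diet (850) it was 508 for the brightest 25%, 2388 with array weights, 27 and 58 with the Gapdh and the spike-in covariate, 308 to 1547 without 1 rat, and 211 without the 2 rats. For ET3x1 against ET3x2 (422) it was 264 after quantile normalization, 843 without the filter, 250 for the brightest 25%, 684 with adjustment within each chip, 1316 with array weights, 266 with the Gapdh covariate, 110 in a fit of the 8 rats alone, and 165 to 445 without 1 rat. Where no cause is given, the cause was not tested.

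Of the named probe sets, 3 that were not called changed sign against S. Gatm (-0.08) was 0.069 with array weights, 0.053 without the 2 rats, and -0.134 to 0.015 without 1 rat. Maf (0.05) was -0.036 after quantile normalization and -0.023 to 0.134 without 1 rat. Hbb (-0.11) was -0.208 to 0.037 without 1 rat. The upper value of Gatm was without ET3x1 rat 2, the lower one of Maf without S rat 4, and the upper one of Hbb without ET3x1 rat 3. Quantile normalization moved the median of 8 of the 28 lists by more than the spread between rats. No paired analysis was possible because the replicate numbers only name rats within a group. The tests rest on 4 and 5 rats.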
